A study of Drosophila melanogaster with 3 samples.

Results

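Serpins are protease inhibitors that act as bait. A target protease cuts an exposed loop of the serpin, the serpin refolds, and both proteins are trapped in a dead complex. In Drosophila melanogaster, serpins restrain the chains of serine proteases in the hemolymph that start Toll signalling and melanization, the deposition of melanin at wounds and around invaders. Other serpins act inside the secretory pathway. The 10 serpin genes described here are Spn27A, Spn28Dc, Spn42Da, Spn42Db, Spn42Dd, Spn43Aa, Spn43Ab, Spn55B, Spn77Ba and Spn88Ea. They were taken by gene symbol from the probe annotation, 1 probe for each, and all 10 probes had a value on every array. They are 10 of 9756 named genes tested and 10 of 24 serpin genes tested. Because they were picked while their ratios on these arrays were known, their ratios are given as a description, with no test.

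The RNA came from the midgut of larvae of genotype EcRM554fs/EcRV559fs, which have no functional isoform of EcR, the ecdysone receptor. These animals carried the heat shock inducible transgene hs-EcR-B230.1 as a conditional rescue and were taken at stage 2a, where they arrest late in the last larval stage. Each of 3 arrays, named replicates 3, 4 and 6 after their titles, set 1 independent mutant sample (635 nm channel) against the same reference, a mixture of Canton S wild-type midgut RNA of several stages (532 nm channel). A ratio therefore carries genotype, transgene, heat shock, strain and stage together, and these cannot be told apart, since the wild type entered only as the mixed reference. In bulk tissue, fewer cells of a type and less RNA per cell cannot be told apart either.

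Values are log2 ratios, centred on the median of each array, and a positive value is taken to mean more RNA in the mutant. That direction is likely from the channel order in the labels and is not stated with the values. If it were opposite, every sign below would turn. Across arrays the number of probes with a value ranged from 14069 to 18991, and the median SD between arrays over all 13026 features was 0.104. The number of arrays limits the precision. The EcR probe, which may also detect transgene RNA, read 1.72, 0.57 and 2.19 on replicates 3, 4 and 6.

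The members fell into a strongly lower set of 4 genes, a mildly lower gene, 3 genes near 0 and a pair above 0. The largest ratio in size was that of Spn27A, with a mean 6.12-fold below the reference, followed by Spn28Dc, Spn43Aa and Spn88Ea at 2.72-fold to 2.80-fold below it. Spn77Ba was 1.45-fold below. Spn55B, 1.54-fold above, and Spn42Dd, 1.21-fold above, had the highest ratios. In the fit across all features (limma, Benjamini-Hochberg adjusted p under 0.05), 5 of the 10 were called lower, 2 higher and 3 not called, beside 37.0% of all features called, 23.7% called lower and 13.4% called higher. A call with at least a 2-fold lower ratio was reached by 4 of the 10, beside 3.92% of all features. The median of the 10 means was -0.26 and that of all features 0.0081. Since the choice of members used this contrast, nothing is read from these counts.

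**Figure D1:**
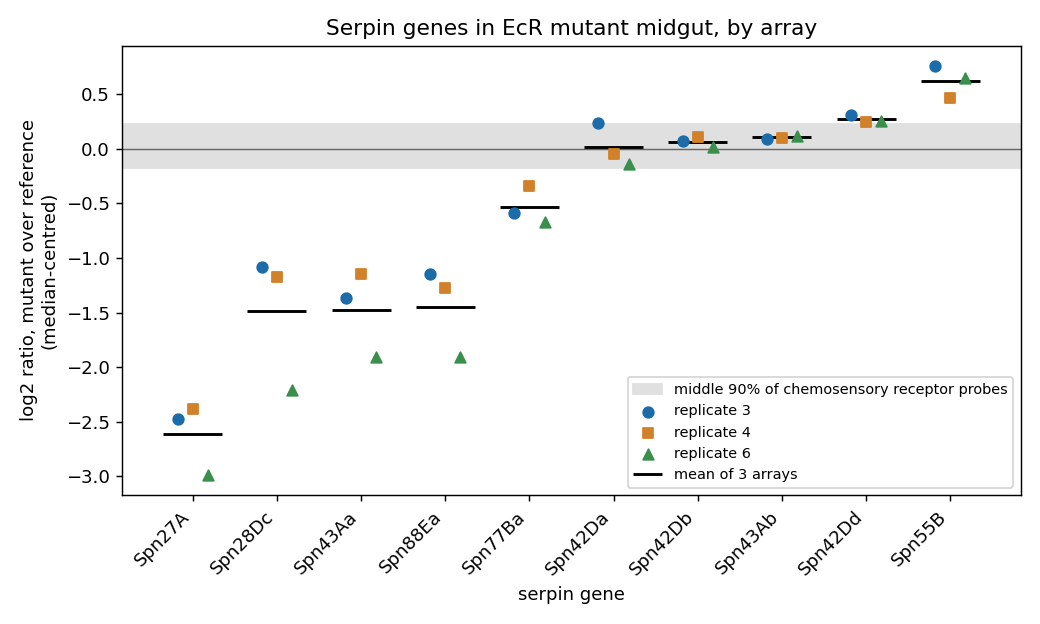
Median-centred log2 ratio (mutant over reference) of the 10 serpin genes, ordered by mean. Markers are the 3 arrays, black lines their mean, and the grey band the middle 90% of 105 chemosensory receptor probes (-0.18 to 0.23). Spn27A lies between -2.98 and -2.38, and Spn42Da, Spn42Db and Spn43Ab have means inside the band.

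Of the serpins that act on the Toll cascade, Spn27A had the lowest ratio. In the embryo it inhibits Easter, the protease that processes the Toll ligand Spätzle, and in larvae and adults it holds back melanization. Its log2 ratio was -2.47 on replicate 3, -2.38 on replicate 4 and -2.98 on replicate 6, with a mean of -2.61 ± 0.32 (SD, n = 3 arrays). All arrays placed it far below the reference, and it ranked 7 from the bottom among 9756 named genes. Spn88Ea, a negative regulator of Toll signalling, read -1.15, -1.27 and -1.91 on replicates 3, 4 and 6, for a mean of -1.44 ± 0.41. Every array was below -1, with replicate 6 the lowest. Spn42Dd, which has been placed in the branch of the Toll pathway that senses fungi, stood on the other side of 0 at 0.31, 0.24 and 0.25, for a mean of 0.27 ± 0.04. Its 3 values were close together, above the 95th percentile of the chemosensory receptor probes (0.23). Without replicate 3, at a mean of 0.25, or on centring on receptor probes, at 0.17, it was not called.

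Besides Spn27A, Spn28Dc and Spn77Ba are known to restrain melanization, and both had ratios below 0 on every array. Spn28Dc, which limits phenoloxidase activity in the hemolymph after injury, read -1.08 on replicate 3, -1.17 on replicate 4 and -2.20 on replicate 6. Its mean was -1.49 ± 0.62, the widest spread of the 10 genes, because replicate 6 lay apart from the other arrays. Spn77Ba, which keeps melanization in check in the tracheae, read -0.58, -0.34 and -0.67, for a mean of -0.53 ± 0.17. All 3 values were negative but none reached a 2-fold difference.

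Spn42Da is known for secretory pathway forms that inhibit furin, a protease that cuts precursor proteins on their way out of the cell. Its ratio changed sign between arrays, at 0.24, -0.05 and -0.14 on replicates 3, 4 and 6, and its mean of 0.02 ± 0.20 gave no direction. Its transcripts are spliced into forms with different loops, and which of them the probe detects is not recorded.

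The remaining members had means from -1.47 to 0.63. Spn43Aa read -1.36, -1.15 and -1.91 on replicates 3, 4 and 6, with a mean of -1.47 ± 0.39, so each array was more than 2-fold below the reference. Spn55B read 0.76, 0.47 and 0.65, with a mean of 0.63 ± 0.14, and was above 0 on every array. Spn42Db at 0.07, 0.11 and 0.02 and Spn43Ab at 0.09, 0.10 and 0.12 stayed next to 0, with means of 0.07 ± 0.04 and 0.10 ± 0.01. For comparison, 105 probes of taste, smell and ionotropic receptor genes (symbols Or, Gr and Ir) had a median of 0.09 and a middle 90% from -0.18 to 0.23, a range that held 60.4% of all named genes. Of the 10 members, 3 had means in that range (Spn42Da, Spn42Db and Spn43Ab). Without intensities, whether these probes were above background is unknown.

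In the order of the means, some neighbours did not separate. Spn27A was below Spn28Dc on all 3 arrays, by 1.13 ± 0.31 on the log2 scale. Spn28Dc and Spn43Aa differed by -0.01 ± 0.29, with both signs among the arrays, and Spn43Aa and Spn88Ea by -0.03 ± 0.17, with 0 on replicate 6, so the order of these 3 genes lies within the spread between arrays. Spn88Ea was below Spn77Ba on every array, by 0.57 to 1.24. At the upper end Spn55B exceeded Spn42Dd on every array, by 0.36 ± 0.11.

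The arrays did not give the 5 lower members with equal size. Each of the 5 had its most negative value on replicate 6, the array with the widest spread over probes (SD of 0.58, against 0.47 and 0.46 on replicates 3 and 4). This was common among genes with low ratios: of 1529 named genes with a mean under -0.4, 66.9% were lowest on replicate 6. The SDs of the 5 members, 0.17 to 0.62, lay between the 78.0th and 99.6th percentiles of all named genes. When the arrays were scaled to an equal spread, Spn27A read -2.60, -2.61 and -2.59, and its SD was 0.0075 in place of 0.32. Spn28Dc remained uneven after the same scaling, at -1.14, -1.28 and -1.91. Spn43Aa and Spn88Ea were also still lowest on replicate 6, and their SDs were 0.20 and 0.23. Spn77Ba was then lowest on replicate 3, at -0.62. After this scaling, 3 of the 5 were lowest on replicate 6, beside 31.1% of the 1516 named genes that then had a mean under -0.4.

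**Figure D2:**
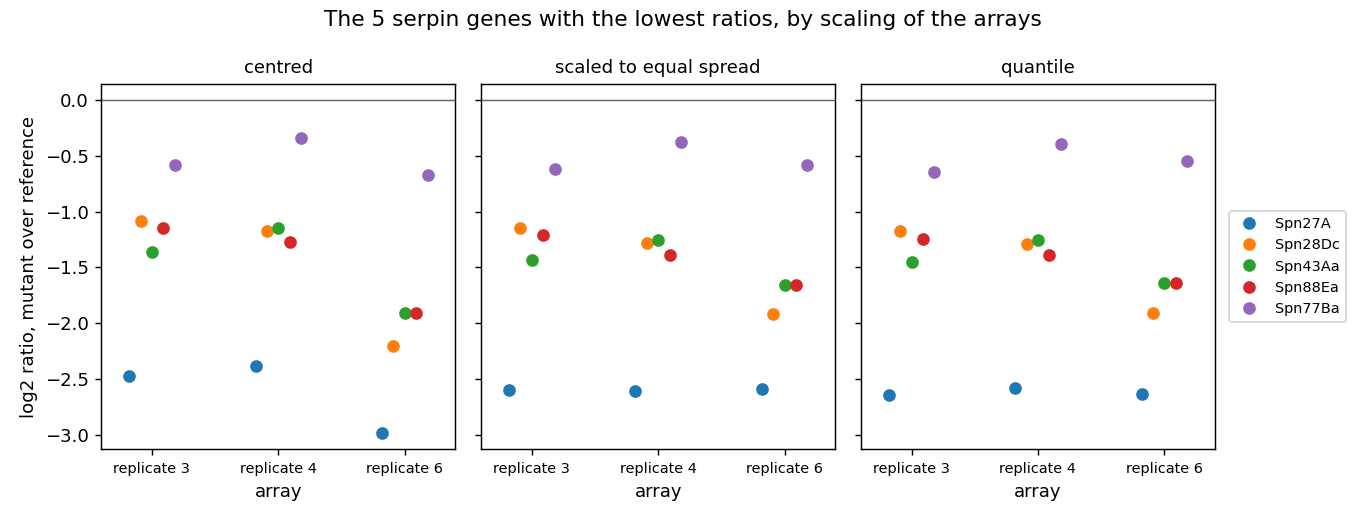
Log2 ratios of the 5 serpin genes with the lowest means on each array, after median centring alone, after scaling the arrays to an equal spread and after quantile normalization. The values of Spn27A come together near -2.6 in both panels of rescaled arrays, while Spn28Dc keeps a lower value on replicate 6 (-1.91 in both).

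Another 14 serpin genes were tested that are not among the 10, and they were mostly near 0. Spn42Dc was higher, with 0.85, 0.19 and 0.82 on replicates 3, 4 and 6 and a mean of 0.62 ± 0.38 (limma adjusted p = 0.00916), and replicate 4 lay well under the other arrays. Without replicate 3 it was no longer called, at a mean of 0.51. Spn42De was lower on every array, with a mean of -0.55 ± 0.11 (limma adjusted p = 7.51e-04). The other 12 did not pass, with means from -0.20 for Spn100A to 0.19 for Spn28F, and their 95% intervals together ran from -0.44 to 0.35. Their count of 2 called in 14 stands beside 37.0% of all features, and their median was 0.06. On the uncentred values 5 of the 14 were called, 4 of them higher.

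One of these others, nec, encodes Necrotic, the serpin that holds back activation of Toll by the protease Persephone. It read -0.02, -0.10 and -0.07, for a mean of -0.07 ± 0.04 (limma adjusted p = 0.411, 95% interval -0.21 to 0.07). Spn28B at 0.15, Spn53F at 0.17, Spn31A at 0.11, Spn85F at 0.10, Spn38F at 0.07, Spn43Ad at 0.05, Spn47C at 0.03, Spn88Eb at 0.0084 and Spn77Bb at -0.11 made up the rest. The 2 probes of Spn77Bb read on average -0.05 and -0.16. Spn77Bc had values on replicates 4 and 6, at 0.0013 and 0.03, and was not tested. Spn28Da, Spn28Db and Spn75F, the further serpins in the gene table, had no probe named for them here.

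Many serpin genes lie side by side in tandem clusters, and close neighbours differed in their ratios. Spn42Da, Spn42Db, Spn42Dc, Spn42Dd and Spn42De follow each other on chromosome arm 2R with no other protein-coding gene between them. Along that row the means were 0.02, 0.07, 0.62, 0.27 and -0.55. Spn42Dd and Spn42De, next to each other, differed by 0.82 ± 0.09 on the same arrays. Elsewhere on the same arm Spn43Aa at -1.47 stood apart from Spn43Ab, Spn43Ad and nec, which follow one another at 0.10, 0.05 and -0.07. Spn43Aa was below Spn43Ab by 1.25 to 2.03 on the individual arrays. Spn88Ea and Spn88Eb are direct neighbours on arm 3R, and Spn88Ea was lower by 1.45 ± 0.54. On arm 3L, Spn77Ba was lower than its neighbour Spn77Bb by 0.43 ± 0.13. The probe sequences were not used, and whether a probe also detects RNA of a related serpin was not tested.

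**Figure D3:**
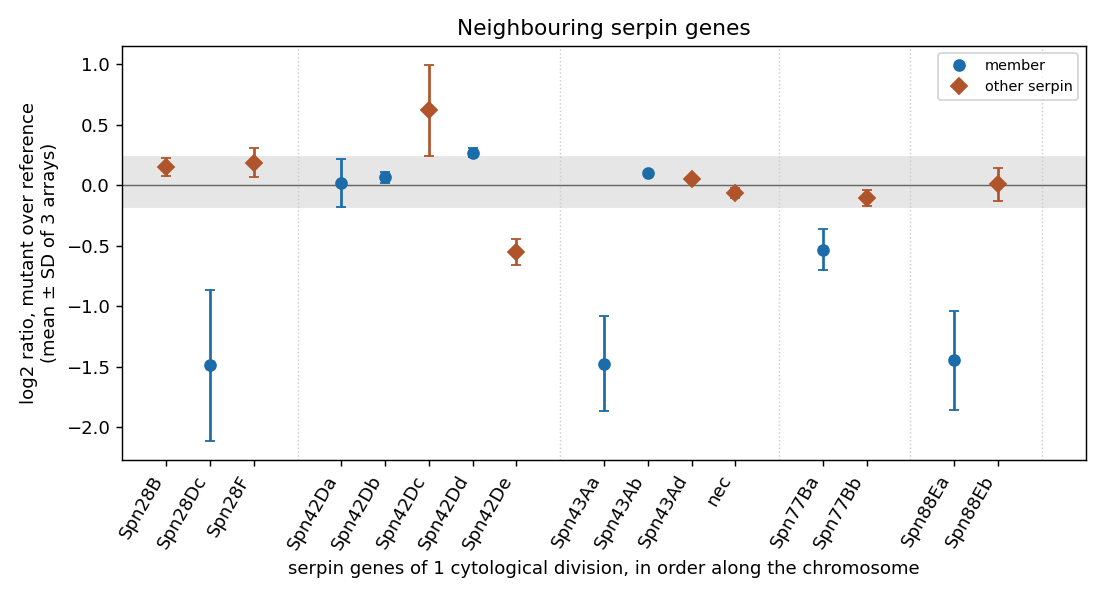
Mean log2 ratio (mutant over reference) with SD over 3 arrays for serpin genes that share a cytological division, in chromosomal order. Circles are members, diamonds other serpins, and the grey band the middle 90% of chemosensory receptor probes. Spn43Aa at -1.47 and Spn88Ea at -1.44 lie below the other serpins of their divisions, which are near 0. Genes other than serpins are not drawn.

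Genes beside the 5 lower members had means from -1.20 to 0.15, and each of the 5 had a neighbour below -0.4. Among all 9756 named genes, 1529 had a mean under -0.4. That share is for single genes, whereas a member has a neighbour on each side, so it is not a like base. The share of genes with such a neighbour on either side was not computed. Whether position plays a part was not tested. Spn27A lies on arm 2L between Galt, at -0.78, and cort, at -0.06. Spn88Ea has CG42542 at -1.20 on the side away from Spn88Eb, and Spn77Ba has alphaSnap at -1.15 on the side away from Spn77Bb. Spn43Aa lies between Cyp9b2 at -0.97 and CG12828 at 0.15, and Spn28Dc between Wwox at -0.41 and CG12560 at -0.57. Of the members that were not lower, Spn55B lies between stau at -0.18 and Dlip3 at 0.24. Spn42Da has CG9447 at 0.12 on the side away from Spn42Db. Of the other serpins, Spn53F at 0.17 sits between the amylase genes Amy-p at 1.48 and Amy-d at 2.94. The 5 named genes whose values over the 3 arrays were closest to those of Spn27A, by Euclidean distance among 9755 genes, were CG8112 (distance 0.23), CG14244 (0.28), firl (0.32), Zip89B (0.33) and Npc2a (0.38). Zip89B belongs to a family of zinc transporters and Npc2a encodes a sterol-binding protein of lysosomes. Both firl and Npc2a lie on the same arm as Spn27A, and the values of Npc2a, at -2.43, -2.46 and -2.62, spread less. Since the distance uses the ratios themselves, genes close to Spn27A necessarily have very low ratios too.

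The proteases of Toll signalling, among which serpins have targets, were compared together with other genes of the pathway. This list held 25 Toll cascade genes, of which 19 were tested, and many of them do not encode proteases. The test called 3 of them higher and 3 lower and left 13 uncalled, a share close to the 37.0% of all features, with a median of -0.01. The extracellular proteases were mostly among those that did not pass. The gene ea, for the target of Spn27A in the embryo, read -0.06, -0.09 and -0.02, for a mean of -0.06 ± 0.03 (limma adjusted p = 0.46), and SPE, for the enzyme that processes Spätzle in the immune response, had a mean of -0.12 ± 0.02 (limma adjusted p = 0.165). The ligand gene spz at -0.09 and the receptor gene Tl at -0.01 did not pass either. Among the proteases only snk, an embryonic protease gene upstream of ea, passed, and it was higher at 0.52 ± 0.10 (limma adjusted p = 8.9e-04).

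Inside the cell, the adaptor gene Myd88 was lower at -1.20, -0.87 and -1.45 on replicates 3, 4 and 6, with a mean of -1.17 ± 0.29 (limma adjusted p = 1.91e-04). The inhibitor gene cact, which retains the transcription factors of the pathway in the cytoplasm, was lower at -0.57 ± 0.08, and the kinase gene pll at -0.39 ± 0.19. The transcription factor genes dl at 0.48 ± 0.16 and Dif at 0.33 ± 0.17 were higher. The calls of pll and Dif were lost without replicate 3, and that of Dif also on centring on receptor probes, where it stood at 0.23. With each probe counted on its own, 14 of 27 probes passed, beside 5174 of 13921 over the series. Some of these genes have several probes, so 1 gene can count more than once.

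Antimicrobial peptide genes, which Toll and Imd signalling switch on, were poorly covered, with 5 of 30 listed names tested. The test called 3 of the 5 lower and 0 higher, beside 23.7% and 13.4% of all features, and the median was -0.38. Def, a defensin gene, read -0.80, -0.66 and -1.39, for a mean of -0.95 ± 0.39 (limma adjusted p = 0.00149). AttD was lower at -0.62 ± 0.30 and DptB at -0.38 ± 0.33, and the call of DptB was not made without replicate 3, without replicate 6 or with a robust variance prior. Mtk at -0.04 and AttB at -0.17 did not pass.

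Of 13 melanization genes listed, 8 were tested, with 0 higher, 2 lower and 6 not passing, and a median of -0.05. Beside this count and that of the convertases below, 37.0% of all features were called and 23.7% called lower. The 2 that were lower encode enzymes that convert dopachrome, yellow-f at -0.66 ± 0.18 (limma adjusted p = 7.7e-04) and yellow-f2 at -0.28 ± 0.07 (limma adjusted p = 0.0118), of which yellow-f2 lost its call without replicate 3. The prophenoloxidase genes PPO1 and PPO2, which supply the oxidase that Spn28Dc and Spn77Ba restrain, read 0.05 ± 0.08 and -0.04 ± 0.04 and did not pass. Ddc at 0.15 and ple at -0.02, of dopamine synthesis, did not pass. Of 3 proprotein convertase genes, 2 were tested. Fur2, a furin gene, was lower at -0.52, -0.62 and -0.96 on replicates 3, 4 and 6, with a mean of -0.70 ± 0.23 (limma adjusted p = 0.0011), and amon at 0.09 did not pass. Spn42Da, the inhibitor of furin, had stood at 0.02.

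Of 16 listed inhibitors and related secreted proteins of other families, 8 were tested, with 1 higher, 4 lower and 3 not passing, and a median of -0.36. Over all features lower calls also outnumbered higher ones, at 23.7% against 13.4%. The spondin-family gene fat-spondin was lower at -2.28, -1.50 and -1.89, with a mean of -1.89 ± 0.39 (limma adjusted p = 6.18e-05). The gene cer, for an inhibitor of cathepsin-type cysteine proteases, was lower at -0.86 ± 0.21, Tep4, of the thioester protein family, at -0.74 ± 0.11, and Timp, for an inhibitor of metalloproteinases, at -0.60 ± 0.23. Kaz-m1, for a Kazal-type inhibitor, was higher at 1.06 ± 0.28.

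**Figure D4:**
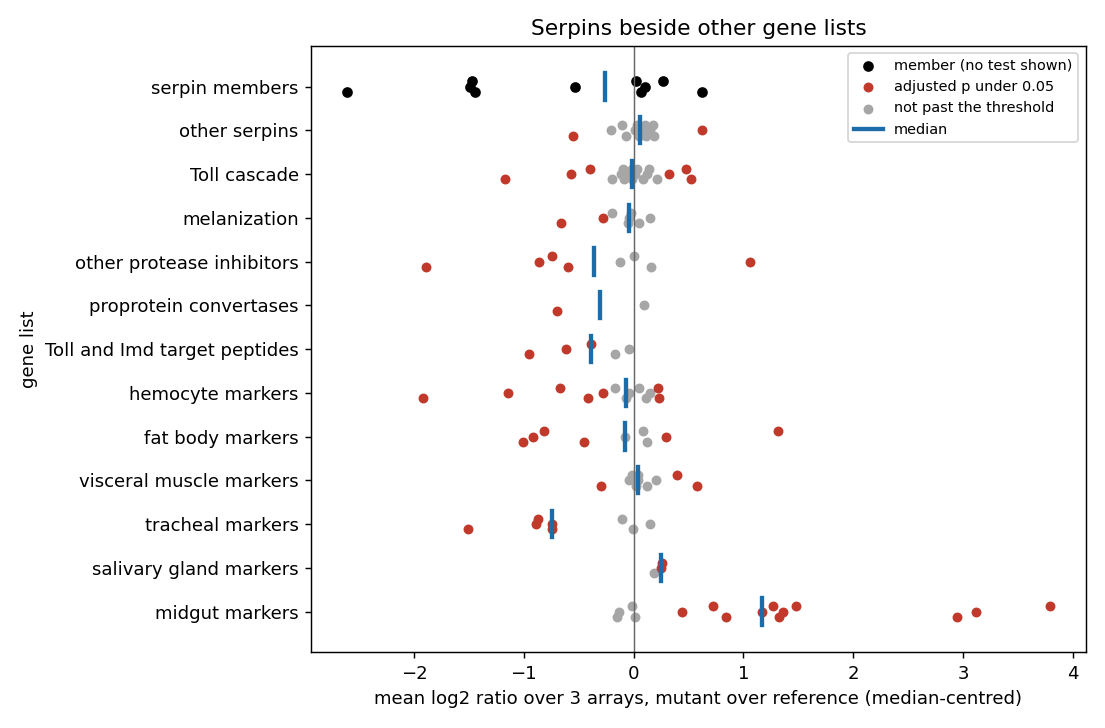
Mean log2 ratio (mutant over reference) of each tested gene, by list; red points had a limma adjusted p under 0.05 and grey points did not, black points are the 10 serpin members, and blue bars are medians. Tracheal markers have a median of -0.74 and midgut markers of 1.17.

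Marker lists of cell types that a dissected midgut can hold differed in their counts. These counts stand beside 37.0% of all features called, 23.7% called lower and 13.4% called higher. Hemolymph serpins are made largely by fat body and blood cells, and Spn77Ba acts in tracheae. Of 8 tracheal markers tested, 0 were higher and 5 lower, with a median of -0.74 (-0.77, -0.43 and -0.99 on replicates 3, 4 and 6), among them btl at -0.88, serp at -0.87, verm at -0.75, uif at -0.74 and Gasp at -1.50. Of 13 hemocyte markers, 2 were higher, 5 lower and 6 not called, with a median of -0.07. The lower ones were Sr-CI at -1.92 and crq at -1.14, genes for scavenger receptors, Col4a1 at -0.67, Glt at -0.41 and Pxn at -0.28, and the higher ones lz at 0.24 and Hml at 0.23. NimC1 at -0.07 and eater at 0.11 did not pass. Of 9 fat body markers, 2 were higher and 4 lower, with a median of -0.08. Fbp1 at -1.01, Lsp2 at -0.92, Lpin at -0.82 and Fbp2 at -0.46 were lower, and Tsf1 at 1.31 and Yp2 at 0.29 higher. Of 10 visceral muscle markers, bt at 0.58 and up at 0.40 were higher, Act87E at -0.30 was lower and 7 did not pass (median 0.04). Of 3 salivary gland markers, Sgs1 at 0.26 and ng3 at 0.25 were higher and 0 lower (median 0.25). The calls of Glt, Pxn, lz, Hml, Fbp2, Yp2, up, Act87E, Sgs1 and ng3 were lost without replicate 3, and those of lz, Hml, Yp2, Sgs1 and ng3 also on centring on receptor probes. Glt, Pxn, lz and Act87E were also among those not called without replicate 6. The call of ng3 was lost without replicate 4 too, and that of Pxn on the values as deposited. Of 15 midgut markers, 11 were higher and 0 lower, with a median of 1.17. Mal-A1 at 3.79, mag at 3.12, Amy-d at 2.94, Amy-p at 1.48, thetaTry at 1.36 and Jon25Bi at 1.32, all genes of digestive enzymes, had the highest ratios, while GATAe at 0.01, cad at -0.15 and nub at -0.13, genes for transcription factors, did not pass. A ratio does not give a level, so these lists do not show how much of each cell type was present, and their part in the serpin ratios was not tested.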

How the data were processed

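The authors deposited a log2 ratio for each of 20000 probes on each of 3 arrays. How they corrected background, filtered spots and formed the ratio is not given here, and intensities were not used. Per the labels, the RNA was amplified before labelling, and the dyes were never swapped, so any dye effect remains in every mean.

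The median of each array was subtracted. Probes with 1 gene symbol and a value on all arrays were averaged by gene. Gene IDs of all 25 probes of the tested serpins carried the same symbol in the gene table (Release 6 plus ISO1 MT), which also gave the neighbours. The mean of each of 13026 features was tested against 0, two-sided, with limma 3.58.1 in R 4.3.3 (lmFit, eBayes) and Benjamini-Hochberg adjustment over all features. The pooled reference counts as 1 control, so wild-type spread is left out. On simulated data with 13026 features, 98% of changes of 0.5, 100% of larger ones and of those of -0.5 were recovered, with 25 false calls beside 200 changed features. The share of false calls was above the 0.05 set. The simulation drew independent normal noise around 0, with far fewer changed features than the 4824 called here. It therefore does not cover centring, a dye effect or arrays of unequal spread.

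Members and lists were chosen with earlier results of these arrays known. Named were all serpins tested, up to 6 called genes per list by absolute ratio, the 5 genes nearest to Spn27A and its neighbours; genes outside this rule were named after their values were seen. Alternatives were 2 other centrings, equal spread, quantile normalization, single probes, a value on at least 2 arrays, robust eBayes and leaving out each array. Centring on probes present on all arrays was added after seeing the data. Python 3.11.15, pandas 2.3.3, numpy 2.4.6 and matplotlib 3.10.9 were used. No sequences are shown.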

Additional observations from a re-analysis of the deposited data

How the results depend on the processing

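Over 11 alternatives, the 10 serpin means gave 104 of 110 values within 1 SD of the reported mean and 6 outside it. The 6 came from the values as deposited and from receptor centring, 3 each. Leaving out 1 of 3 arrays cannot move a mean by 1 SD. Single probes, the filter of 2 arrays and robust eBayes leave the mean of a gene with 1 complete probe unchanged. Those settings could therefore not fall outside, and the count of 104 does not measure stability. No called member changed sign. Spn27A ranged from -2.73 to -2.43, Spn28Dc from -1.69 to -1.13, Spn43Aa from -1.64 to -1.26, Spn88Ea from -1.59 to -1.21, Spn77Ba from -0.63 to -0.46, Spn55B from 0.53 to 0.70 and Spn42Dd from 0.17 to 0.33. Spn42Da ranged from -0.09 to 0.10 and Spn42Db from -0.03 to 0.13, on both sides of 0. The count of members called was 7, or 6 on receptor centring and without replicate 3, where Spn42Dd was not called. Centring moves the split of all calls. As deposited, 3038 features were higher and 2729 lower, and centred on receptor probes, which moves the median of all features to -0.09, 961 were higher and 4197 lower, against 1743 and 3081. The count of features called was 2784 to 4625 when 1 array was left out, lowest without replicate 3, against 4824. Other serpins called numbered 5 as deposited and 1 to 3 with 1 array left out, against 2, and melanization genes 1 to 3, against 2. Each of these was lowest without replicate 3. Toll cascade calls numbered 14 with single probes, where 27 probes are counted in place of 19 genes, and 4 to 8 with 1 array left out. The cause of the lower counts without replicate 3 was not tested. Of 651 further values of named genes, 615 stayed on the same side of the threshold, 30 lost a call and 6 gained one. Single probes, the filter of 2 arrays and centring on probes present on all arrays barely alter the data of these genes. None of these settings moved a gene across the threshold. Most called genes entered here had the largest ratios of their list, so the count of 615 does not measure stability either. No paired analysis was possible because there is 1 group of samples. With no intensities, signal over background is unknown for every probe.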
